A study of Mus musculus with 79 samples.

Results

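Otx2, Pou3f1, Sox3, Sox11, Foxd3, Tcf15 and Sall2 encode transcription factors that are grouped here as formative factors. The formative state is the stage between naive pluripotency and commitment to a germ layer. The members were the entries of the deposited expression table that carry 1 of these 7 symbols, out of 35230 genes in all. They were read in 79 libraries of strand-specific RNA sequencing after oligo-dT capture, from mouse embryonic stem cells (ESCs), epiblast-like cells (EpiLCs) and embryoid bodies (EBs). EpiLCs are made from ESCs in adherent culture and stand for the early post-implantation epiblast, and EBs are aggregates in which ESC derivatives enter the germ layers. In TET KO the genes Tet1, Tet2 and Tet3 are knocked out, and TET WT is the line it was made from. DNMT KO is a triple knockout of Dnmt1, Dnmt3a and Dnmt3b and is set against DNMT WT, the line of its own origin. Every line was kept in 2i and LIF as ESCs on day 0 (ESC D0) and was sampled as EpiLCs on days 1 and 2 (EpiLC D1 and D2) and as EBs on days 2, 4, 6 and 8 (EB D2 to D8). Of the 28 groups, 23 held 3 libraries and 5 held 2 (EB D2 in TET KO and in DNMT KO, and 3 conditions of DNMT WT, which were ESC D0, EpiLC D1 and EB D4). Each genotype was 1 line, so an effect of the knockout and a difference between 2 lines cannot be told apart. Nothing in the labels says that replicates were separate cultures, so the p-values measure only the spread between these samples.

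In the mouse embryo, the naive factors of the blastocyst are lost at implantation, and the epiblast takes up a formative programme before gastrulation. Otx2, a homeodomain protein, and Pou3f1 (also called Oct6), a POU-domain protein, are leading factors of this programme and later act in the anterior neural plate and in neural and glial cells. TET enzymes oxidise methylated cytosine and DNMT enzymes lay the methyl group down, and implantation is the time at which the mouse genome gains most of its methylation.

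The targeted genes were read first, each over all libraries of a genotype. Dnmt1 held 3.63 to 6.49 RPKM (reads per kilobase of gene, scaled to library depth) in DNMT KO, against 39.4 to 63.2 RPKM in DNMT WT, with no overlap. Dnmt3a held 0.340 to 4.94 RPKM in DNMT KO and 1.63 to 60.3 RPKM in DNMT WT, and Dnmt3b 3.03 to 58.6 RPKM in DNMT KO and 24.0 to 382 RPKM in DNMT WT. Tet1 held 2.53 to 13.5 RPKM in TET KO and 2.33 to 26.3 RPKM in TET WT, Tet2 0.810 to 8.09 RPKM in TET KO and 0.771 to 12.6 RPKM in TET WT, and Tet3 0.121 to 7.39 RPKM in TET KO and 0.268 to 8.95 RPKM in TET WT. The ranges of all but Dnmt1 overlapped, and which part of each gene was deleted is not given in the labels, so the level of these genes does not check the TET KO label. Depths ran over libraries from 7.76 M to 13.9 M recovered reads (median 11.2 M). The library of TET WT at EB D4 replicate 2 stood apart, with 12.2% of its reads on Gm42418, against at most 2.12% in any other library. It was also the shallowest, at 7.76 M reads, but TET KO at EpiLC D2 was near it in replicate 1 (7.85 M) and replicate 3 (8.34 M). All 7 members were lowest in the TET WT library that stood apart among the 3 of EB D4, and member calls at EB D4 that use it are given with and without it. Summed levels of a naive list and of a formative and primed list separated ESC D0 from EpiLC D2. Over all genotypes, EpiLC D2 and EB D2 overlapped in both lists. A naive list of 15 genes (Nanog, Esrrb, Klf4 and others) held 208 to 526 RPKM per library at EpiLC D2 and 1567 to 1843 RPKM at ESC D0, over all genotypes. A list of 19 other formative and primed genes (Fgf5, Utf1, Zic2 and others) held 538 to 1206 RPKM at EpiLC D2 and 252 to 305 RPKM at ESC D0, where Fgf5 had no read.

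The deposited coordinates are of GRCm38. Otx2 (ENSMUSG00000021848) lies at chr14:48657677-48673819 on the minus strand and Sall2 (ENSMUSG00000049532) at chr14:52311172-52328762 on the minus strand. Pou3f1 (ENSMUSG00000090125) lies at chr4:124656807-124660655 on the plus strand and Foxd3 (ENSMUSG00000067261) at chr4:99656299-99658622 on the plus strand. Sox3 (ENSMUSG00000045179) lies at chrX:60891366-60893430 on the minus strand, Sox11 (ENSMUSG00000063632) at chr12:27334264-27342574 on the minus strand and Tcf15 (ENSMUSG00000068079) at chr2:152143561-152149097 on the plus strand.

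RefSeq promoter windows (GRCm38.p6, 250 bases before to 50 after an annotated start) were at hand for 4 of the 7 members, in 8 windows. They are shown because the knocked-out enzymes act on CG dinucleotides, which are in capitals. The pair Foxd3 and Sox11 is printed because these genes took opposite signs in DNMT KO at EB D6 and EB D8, described further on, where Sox11 was not called. Otx2 is printed as the member with the most annotated starts, 4.
Foxd3, chr4:99656049-99656348, plus strand: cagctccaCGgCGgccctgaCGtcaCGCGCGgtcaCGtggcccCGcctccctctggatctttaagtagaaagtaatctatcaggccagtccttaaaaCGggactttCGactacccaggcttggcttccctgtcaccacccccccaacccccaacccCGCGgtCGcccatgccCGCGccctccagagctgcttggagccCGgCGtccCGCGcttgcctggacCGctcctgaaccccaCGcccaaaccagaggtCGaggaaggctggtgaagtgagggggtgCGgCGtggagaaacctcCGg
Sox11, chr12:27342669-27342968, minus strand: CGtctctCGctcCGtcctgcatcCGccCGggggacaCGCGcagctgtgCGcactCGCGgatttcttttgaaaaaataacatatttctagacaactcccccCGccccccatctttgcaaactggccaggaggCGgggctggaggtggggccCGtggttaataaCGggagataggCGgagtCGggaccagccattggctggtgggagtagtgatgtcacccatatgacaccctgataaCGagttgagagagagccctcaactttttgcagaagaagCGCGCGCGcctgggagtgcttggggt
Otx2, chr14:48665060-48665359, minus strand: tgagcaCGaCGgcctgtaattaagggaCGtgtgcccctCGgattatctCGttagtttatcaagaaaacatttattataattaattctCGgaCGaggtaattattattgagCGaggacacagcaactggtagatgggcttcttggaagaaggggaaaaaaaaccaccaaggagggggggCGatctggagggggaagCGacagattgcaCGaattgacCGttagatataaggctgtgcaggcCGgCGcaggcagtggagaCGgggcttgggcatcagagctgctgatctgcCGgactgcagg
The Foxd3 window held 25 CG dinucleotides, and 18.4% of the 32851 windows of this length in the table held at least as many. The Sox11 window held 21, a count reached by 24.8% of all windows. The 4 Otx2 windows held 6 to 16, of which the printed one held the most, and the 2 Sall2 windows held 1 and 10. The median over all windows was 7. The motif searched was CG, which reads the same on both strands, and a count of it is a description of the sequence that says nothing about its methylation in these cells.

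The first comparison asks how the members move as a parental line leaves the naive state. Otx2, Pou3f1, Sox3, Sox11 and Tcf15 were higher at EpiLC D1, EpiLC D2, EB D2 and EB D4 than at ESC D0 in both parental lines. Foxd3 was present in ESCs and was not called at any of these conditions, then fell at EB D6 and EB D8. Calls were made where limma gave an adjusted p below 0.05 with a size of 1 or more in log2 change, on the scale of log2(RPKM + 0.5), which understates the change of low genes. All 7 members were among the 15267 genes tested. Bulk RNA was measured, so fewer cells of a type and less RNA per cell cannot be told apart.

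**Figure D1:**
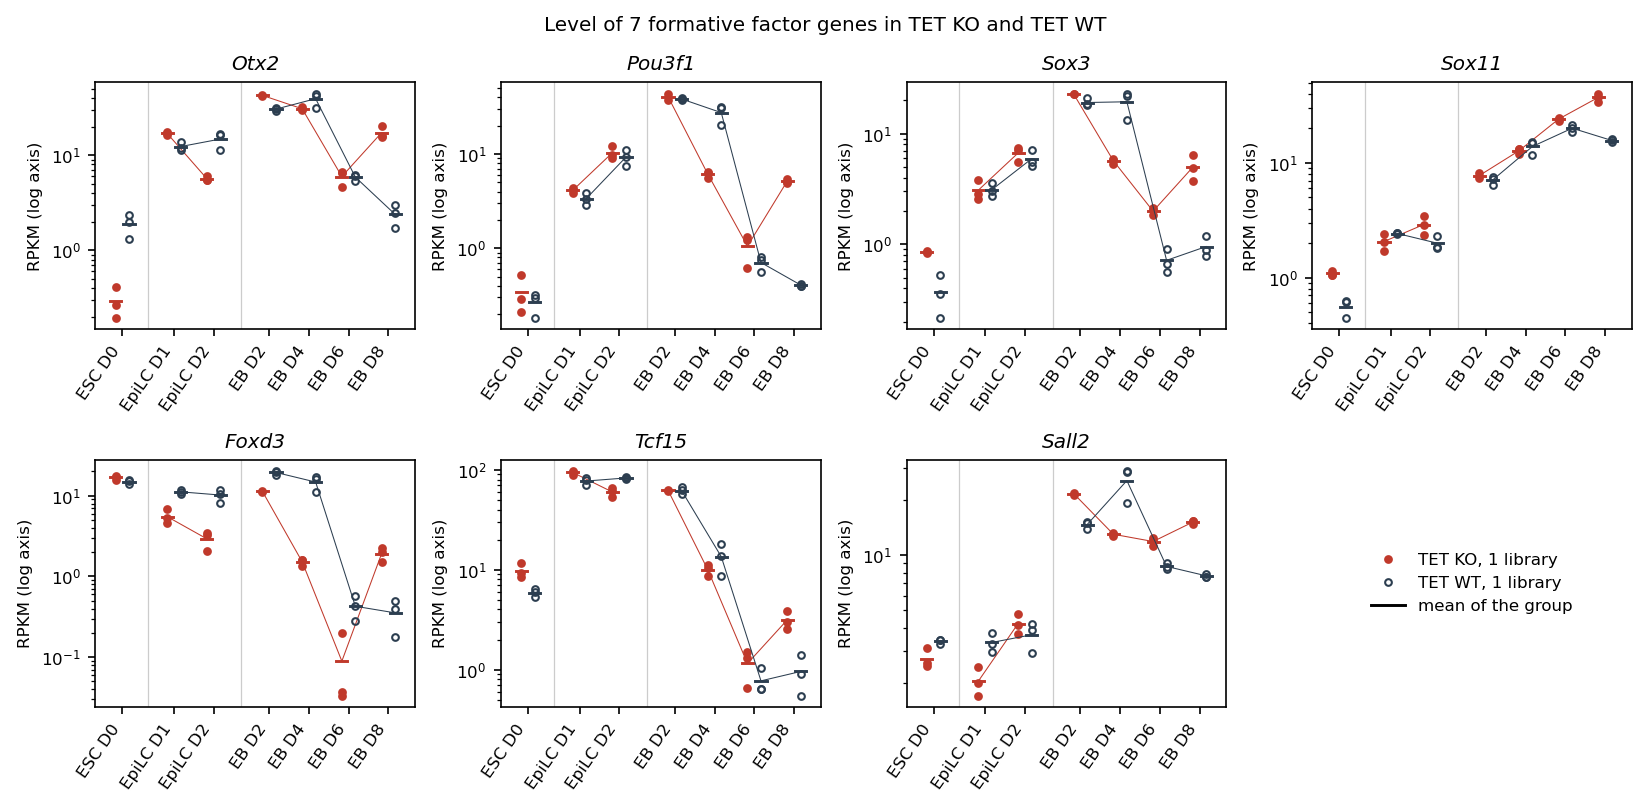
RPKM (log axis) of the 7 members in TET KO (filled points, left at each condition) and TET WT (open points, right), with 1 point per library, a bar at the mean of the group and lines along the EpiLC days and the EB days. Foxd3, Pou3f1 and Sox3 lay lower in TET KO at EB D4, and all 7 members lay higher in TET KO at EB D8.

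Against ESC D0, 5 members were called in TET WT at EpiLC D1 (12.9% of all genes were called), 5 at EpiLC D2 (27.6%), 6 at EB D2 (15.2%), 6 at EB D4 (20.2%), then 5 at EB D6 (27.3%) and lastly 4 at EB D8 (32.7%). In DNMT WT, 6 were called at EpiLC D1 (12.2% of all genes), 6 at EpiLC D2 (16.6%), 6 at EB D2 (19.7%), 6 at EB D4 (24.8%), then 7 at EB D6 (32.1%) and 6 at EB D8 (37.7%). These 6 comparisons of a line share its ESC D0 libraries. Over the 6 conditions, 31 of 42 member comparisons were called in TET WT and 37 of 42 in DNMT WT.

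Otx2 was low in parental ESCs and reached its highest parental levels in EBs. In TET WT it averaged 1.89 ± 0.53 RPKM at ESC D0, 12.3 ± 1.2 at EpiLC D1, 14.8 ± 3.1 at EpiLC D2, 30.5 ± 0.98 at EB D2, 39.2 ± 6.9 at EB D4, then 5.88 ± 0.43 at EB D6 and lastly 2.39 ± 0.63 at EB D8 (SD, n = 3 each). In DNMT WT it averaged 0.612 ± 0.21 RPKM at ESC D0 (n = 2) and 46.1 ± 1.0 at EB D4 (n = 2), the highest of all 28 groups. The change at EpiLC D1 against ESC D0 was 2.45 ± 0.15 in TET WT and 3.92 ± 0.18 in DNMT WT (log2, SE). At EB D8 Otx2 was back within 0.28 ± 0.17 of ESC D0 in TET WT, which was not called, and 2.12 ± 0.19 above it in DNMT WT.

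Pou3f1 had the largest log2 change from ESC D0 of the 7 in both parental lines with 0.5 RPKM added. With nothing added, Sox3 had the larger change of the pair at EB D2 in DNMT WT, at 8.05 against 7.76 for Pou3f1. In DNMT WT Pou3f1 averaged 0.372 ± 0.28 RPKM at ESC D0 (n = 2), 20.7 ± 2.5 at EpiLC D1 (n = 2), 59.0 ± 2.6 at EpiLC D2 and 67.8 ± 2.7 at EB D2 (n = 3 each). Pou3f1 then averaged 33.7 ± 1.0 at EB D4 (n = 2), 2.31 ± 0.16 at EB D6 and 0.731 ± 0.11 at EB D8 (n = 3 each). Its log2 changes follow. The change at EB D2 against ESC D0 was 6.33 ± 0.16 in DNMT WT and 5.67 ± 0.14 in TET WT (log2, SE). In TET WT Pou3f1 averaged 38.5 ± 0.65 RPKM at EB D2 but 9.29 ± 1.8 at EpiLC D2 (n = 3 each). The log2 change of EpiLC D2 over EB D2 was -2.01 ± 0.12 there, so the EB route gave the higher level.

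Sox3, an X-linked SOXB1 protein close to Sox2 that marks the epiblast and neural progenitors, followed nearly the same course. In DNMT WT it held 0.126 ± 0.016 RPKM at ESC D0, which was 3 reads in each of 2 libraries, and 33.2 ± 1.5 RPKM at EB D2 (n = 3). In TET WT it averaged 0.366 ± 0.16 RPKM at ESC D0, 19.1 ± 1.5 at EB D2 and 0.715 ± 0.18 at EB D6 (n = 3 each). Over the 28 group means Sox3 and Pou3f1 correlated at a Pearson r of 0.944.

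Sox11, a SOXC protein of neural progenitors and young neurons, took another course. In TET WT it averaged 0.559 ± 0.10 RPKM at ESC D0, 2.00 ± 0.27 at EpiLC D2, 7.12 ± 0.59 at EB D2, 13.9 ± 2.0 at EB D4, then 20.1 ± 1.3 at EB D6 and lastly 15.7 ± 0.46 at EB D8 (n = 3 each). In DNMT WT it averaged 21.0 ± 0.75 RPKM at EB D6 and 19.8 ± 0.92 at EB D8 (n = 3 each), so Sox11 was highest where Pou3f1, Sox3 and Foxd3 were low. At EB D8 it lay 3.94 ± 0.09 above ESC D0 in TET WT and 4.08 ± 0.10 in DNMT WT (log2, SE). Its call at EpiLC D1 in DNMT WT (1.24 ± 0.17) was lost without EpiLC D1 replicate 1 (0.97).

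Foxd3, a forkhead factor needed for the mouse epiblast and for neural crest, was read at 15.0 ± 0.75 RPKM in TET WT ESCs (n = 3) and 18.7 ± 0.80 in DNMT WT ESCs (n = 2). It stayed at 10.2 RPKM or more in the group means of both lines through EB D4. By EB D6 it was at 0.427 ± 0.15 RPKM in TET WT and 0.753 ± 0.057 in DNMT WT (n = 3 each). The log2 changes against ESC D0 at EB D6 were -4.08 ± 0.10 in TET WT and -3.94 ± 0.12 in DNMT WT.

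Tcf15, a bHLH factor that primes pluripotent cells for differentiation and later acts in the somites, peaked early. It averaged 5.90 ± 0.53 RPKM in TET WT ESCs, 77.4 ± 7.0 at EpiLC D1 and 83.1 ± 2.5 at EpiLC D2, and 0.957 ± 0.43 at EB D8 (n = 3 each). Its change at EpiLC D1 was 3.6 ± 0.12 in TET WT and 3.50 ± 0.14 in DNMT WT, and at EB D8 it lay below ESC D0, by -2.18 ± 0.20 in TET WT and -1.62 ± 0.22 in DNMT WT (log2, SE). Its call in TET WT at EB D4 (1.08 ± 0.19) was lost without replicate 1 (0.84), and was 1.35 without replicate 2. Without that replicate the same 6 members were called in TET WT at EB D4, Otx2 at 4.22, Pou3f1 at 5.37, Sox3 at 4.74, Sox11 at 3.88 and Sall2 at 2.90.

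Sall2, a zinc-finger protein of the spalt family to which Sall4 also belongs, differed between the lines from the start. In TET WT it held 3.38 ± 0.08 RPKM at ESC D0 and 3.67 ± 0.68 at EpiLC D2 (n = 3 each), a log2 change of 0.09 ± 0.12 that was not called. In DNMT WT it held 1.38 ± 0.18 RPKM at ESC D0 (n = 2) and 14.2 ± 1.4 at EpiLC D2 (n = 3), a log2 change of 2.96 ± 0.14. At EB D8 Sall2 lay 1.08 ± 0.08 above ESC D0 in TET WT, a call lost with centred libraries (0.81) and under quantile normalization (0.84). Both lines held their highest Sall2 at EB D4, 25.5 ± 5.4 RPKM in TET WT (n = 3) and 28 ± 2.3 in DNMT WT (n = 2).

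On day 2 the EpiLC and EB routes could be set side by side within a line. EpiLC D2 lay below EB D2 for Otx2, Pou3f1, Sox3, Sox11 and Sall2 in TET WT, and 20% of all genes were called there. The log2 changes were -1.04 ± 0.11 for Otx2, -1.62 ± 0.14 for Sox3, -1.61 ± 0.15 for Sox11 and -1.88 ± 0.12 for Sall2 in TET WT. In DNMT WT, Otx2 (-1.30 ± 0.11), Sox3 (-1.36 ± 0.14) and Sox11 (-1.29 ± 0.15) were lower at EpiLC D2, where 6.26% of all genes were called. Foxd3 and Tcf15 were not called in either line. The Otx2 call in TET WT was lost when libraries were centred on their medians (-0.79) and without EpiLC D2 replicate 2 (-0.86). Without that library Foxd3, at -0.91 ± 0.13 with it, was called (-1.02).

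The 2 parental lines differed most as EpiLCs. Pou3f1 had 3.84, 3.37 and 2.89 RPKM at EpiLC D1 in TET WT, against 22.5 and 18.9 RPKM in DNMT WT. At EpiLC D2 it had 7.52, 11.2 and 9.20 RPKM in TET WT, against 56.7, 58.6 and 61.9 RPKM in DNMT WT. On both days every TET WT library lay below every DNMT WT library. The log2 changes were -2.46 ± 0.11 at EpiLC D1 (limma adjusted p = 1.2e-07) and -2.62 ± 0.14 at EpiLC D2 (adjusted p = 3.2e-08).

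Foxd3 had 11.9, 11.1 and 10.6 RPKM at EpiLC D1 in TET WT, against 34.0 and 30.0 RPKM in DNMT WT, a log2 change of -1.48 ± 0.13. At EpiLC D2 it had 8.23, 11.9 and 10.5 RPKM in TET WT, against 28.5, 28.1 and 29.1 RPKM in DNMT WT, a log2 change of -1.46 ± 0.16. Sall2 was at 2.91, 4.19 and 3.92 RPKM in TET WT and at 15.7, 13.7 and 13.0 RPKM in DNMT WT, a log2 change of -1.82 ± 0.14. Tcf15 alone of the members was called higher in TET WT at EpiLC D2, at 1.0 ± 0.16, and Sox3 was called lower at -1.05 ± 0.17. Both of these last calls stood near the threshold and were lost under quantile normalization (0.72 for Tcf15, -0.84 for Sox3), and that of Sox3 with centred libraries too (-0.87). The Tcf15 call was lost without TET WT replicate 2 (0.98) or DNMT WT replicate 1 (0.85), and the Sox3 call without TET WT replicate 1 (-0.96) or DNMT WT replicate 1 (-0.96). Sox11, not called at -0.89 ± 0.17, was called without DNMT WT replicate 1 (-1.02). In all, 2 members were called at EpiLC D1 (11.7% of all genes were called) and 5 at EpiLC D2 (22.8%).

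At ESC D0, 2 members were called between the parental lines (8.24% of all genes), both higher in TET WT, Otx2 at 1.09 ± 0.21 and Sall2 at 1.05 ± 0.11. Both calls were lost without DNMT WT replicate 2 (0.90 for Otx2, 0.95 for Sall2), that of Otx2 also without TET WT replicate 3 (0.95), and that of Sall2 under quantile normalization (0.96). Both genes lie on chromosome 14. The median chromosome 14 gene was 0.52 higher at ESC D0 in TET WT than in DNMT WT relative to all genes, 0.45 at EpiLC D1, 0.39 at EpiLC D2 and -0.02 at EB D8 (log2, genes at 1 RPKM or more), and its part in the result was not tested. In EBs limma called 0 members at EB D2 (5.08% of all genes), EB D4 (2.29%) and EB D8 (2.44%), where 5, 1 and 4 members had an unadjusted p under 0.05 and voom called 0. At EB D6 (2% of all genes) Pou3f1 was lower in TET WT at -1.22 ± 0.16 and Sox3 at -1.12 ± 0.13. Across the 7 conditions, 11 of 49 member comparisons were called between the parental lines.

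In TET KO a few members were lower early, and nearly all were higher at the end of EB culture. Against TET WT, 13 of 49 member comparisons were called, 6 lower and 7 higher. They numbered 1 at ESC D0 (6.78% of all genes were called), 0 at EpiLC D1 (6.62%), 2 at EpiLC D2 (7.9%), 0 at EB D2 (7.41%), 3 at EB D4 (9.47%), then 1 at EB D6 (5.02%) and 6 at EB D8 (9.98%). For the conditions with 0 calls in limma, 5 members had an unadjusted p under 0.05 at EpiLC D1 and 4 at EB D2, and voom called 1 (Foxd3) at EpiLC D1 and 0 at EB D2.

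Otx2 had 0.194, 0.264 and 0.414 RPKM in TET KO ESCs, against 1.32, 1.98 and 2.36 RPKM in TET WT ESCs. All TET KO libraries lay below all TET WT libraries, and the log2 change was -1.58 ± 0.19 (limma adjusted p = 6.7e-05). On EpiLC D1 the order was the other way round, at 16.9, 16.5 and 17.5 RPKM in TET KO against 13.7, 11.4 and 11.8 RPKM in TET WT, a log2 change of 0.45 ± 0.07 that was not called. On EpiLC D2 Otx2 was lower again, at 6.07, 5.45 and 5.48 RPKM in TET KO against 16.4, 11.2 and 16.7 RPKM in TET WT, a log2 change of -1.29 ± 0.13 (adjusted p = 1.2e-05). The mean was 16.9 ± 0.50 RPKM at EpiLC D1 and 5.67 ± 0.35 at EpiLC D2 in TET KO, and 12.3 ± 1.2 and 14.8 ± 3.1 RPKM in TET WT (n = 3 each).

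Chromosome 14, on which Otx2 and Sall2 lie, was lower as a whole in TET KO than in TET WT. Relative to all genes its median was -0.41 at ESC D0, -0.35 at EpiLC D1, -0.38 at EpiLC D2, -0.38 at EB D2, -0.40 at EB D4, then -0.11 at EB D6 and -0.02 at EB D8 (log2, 432 to 469 genes), and its part in the changes of Otx2 and Sall2 was not tested. In TET WT over DNMT WT the chromosome 14 median was 0.52 at ESC D0, 0.46 at EB D2 and 0.36 at EB D4. At these conditions TET WT thus stood higher on chromosome 14 than TET KO and than DNMT WT. The other chromosomes that carry a member stayed between -0.11 and 0.22 over all comparisons between lines.

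Foxd3 was not called in TET KO ESCs, with 17.3, 17.7 and 15.8 RPKM in TET KO against 14.1, 15.5 and 15.4 RPKM in TET WT. At EpiLC D1 it had 6.78, 4.54 and 5.23 RPKM in TET KO and 11.9, 11.1 and 10.6 RPKM in TET WT, at a log2 change of -0.97 ± 0.12, just short of the threshold. It was called without TET KO replicate 1 (-1.12) or TET WT replicate 3 (-1.01), with 0.1 RPKM added (-1.02) and by voom (-1.05). At EpiLC D2 it had 3.23, 3.47 and 2.06 RPKM in TET KO and 8.23, 11.9 and 10.5 RPKM in TET WT, without overlap. This was a log2 change of -1.65 ± 0.16 (adjusted p = 8.3e-06). Pou3f1, Sox3, Sox11, Tcf15 and Sall2 were not called at EpiLC D2, with log2 changes of 0.16 ± 0.14, 0.16 ± 0.17, 0.44 ± 0.17, -0.47 ± 0.16 and 0.19 ± 0.14.

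The change from ESC D0 was then compared between TET KO and TET WT directly. A called difference of response was found for Otx2 at EpiLC D1 (2.03 ± 0.21) and EB D2 (2.05 ± 0.23), where Otx2 rose by more in TET KO from its lower start. Foxd3 had differences of -1.14 ± 0.13 at EpiLC D1 and -1.82 ± 0.18 at EpiLC D2, and Tcf15 had one of -1.15 ± 0.21 at EpiLC D2. Tcf15 started higher in TET KO, at a mean of 9.80 RPKM at ESC D0 against 5.90 RPKM in TET WT, which was not called. The Tcf15 level at EpiLC D2 was not itself called. Of all genes, 4.05% had a called difference at EpiLC D1, 6.45% at EpiLC D2, 5.2% at EB D2 and 9.98% at EB D4. The Foxd3 difference at EpiLC D1 lost its call when libraries were centred on their medians (-0.90), under quantile normalization it was also -0.90, and that of Tcf15 at EpiLC D2 lost its call there (-0.83).

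EB D4 brought the largest falls in TET KO. Foxd3 had 1.60, 1.62 and 1.34 RPKM in TET KO, against 17.1, 11 and 16.3 RPKM in TET WT. Pou3f1 had 6.33, 6.5 and 5.60 RPKM in TET KO, against 31.7, 20.4 and 30.5 RPKM in TET WT. Sox3 had 5.90, 5.77 and 5.35 RPKM in TET KO, against 22.9, 13.3 and 21.9 RPKM in TET WT. In all 3 genes every TET KO library lay below every TET WT library, and the middle TET WT value of each triplet is the library that stood apart. The mean was 9.72-fold lower in TET KO for Foxd3, 4.48-fold lower for Pou3f1 and 3.41-fold lower for Sox3. The log2 changes were -2.90 ± 0.15 for Foxd3 (limma adjusted p = 1.9e-10), -2.05 ± 0.16 for Pou3f1 (adjusted p = 1.9e-08) and -1.65 ± 0.17 for Sox3 (adjusted p = 9.2e-07). Without TET WT replicate 2 they were -3.09, -2.25 and -1.89. The median over all genes was 0.19 here, and with libraries centred on their medians the changes were -3.20, -2.35 and -1.95.

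Sall2 had 12.7, 13.2 and 12.9 RPKM in TET KO at EB D4, against 28.6, 19.3 and 28.5 RPKM in TET WT, a log2 change of -0.92 ± 0.14 that was not called. Without TET WT replicate 2 it was called, at -1.11, as it was with centred libraries (-1.22) and under quantile normalization (-1.18). Otx2 (-0.33 ± 0.13), Sox11 (-0.11 ± 0.13) and Tcf15 (-0.36 ± 0.22) were not called. The difference of response from ESC D0 was called for 5 members at EB D4, at 1.25 ± 0.22 for Otx2, -2.18 ± 0.24 for Pou3f1, -2.31 ± 0.24 for Sox3, -3.07 ± 0.17 for Foxd3 and -1.04 ± 0.27 for Tcf15. Without TET WT EB D4 replicate 2 the same 5 were called, at 1.10, -2.38, -2.55, -3.26 and -1.31 in that order. The Otx2 and Tcf15 levels at EB D4 were not themselves called, and Tcf15 started higher in TET KO at ESC D0. The Tcf15 difference lost its call without TET KO ESC D0 replicate 3 (-0.91) or TET KO EB D4 replicate 1 (-0.94). It was also lost without TET WT ESC D0 replicate 1 (-0.97), TET WT EB D4 replicate 1 (-0.81) or TET WT EB D4 replicate 3 (-0.99).

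Genes of gastrulation stood far higher in the same TET KO libraries. At EB D4 all 12 genes of a primitive streak and anterior endoderm list were called higher in TET KO, with a median log2 change of 3.37 against 0.19 over all genes. Summed, the list held 846 to 885 RPKM per TET KO library and 40.2 to 58.9 RPKM per TET WT library, and Mesp1 had no read in TET WT. Without TET WT replicate 2, 11 of the 12 were called higher and the median was 3.36, against 0.06 over all genes. Among the streak genes were T, the mesoderm factor of the streak, at 5.65 ± 0.19, Mixl1 at 6.72 ± 0.26, Lhx1 at 5.65 ± 0.28 and Gsc, a factor of the anterior streak, at 4.75 ± 0.20. Other formative and primed genes did not move with the members as a group, with 2 of 19 called higher and 3 lower and a median of 0.14 (also 2 and 3 without that library, with a median of -0.03). Of the called ones, Fgf15, a fibroblast growth factor, was at -3.90 ± 0.20 and Cdh2, the cadherin taken up at gastrulation, at 3.45 ± 0.16. Of 9 neural and anterior ectoderm genes tested, 3 were called lower, Tubb3 at -3.31 ± 0.18 and Sox1 at -1.30 ± 0.16 among them, and 4 without that library. That list of 16 summed to 19.9 to 24.0 RPKM in TET KO and 30.9 to 46.0 RPKM in TET WT, with Hes5 and Fezf2 at no read in either. At ESC D0 the list summed to 30.2 to 34.3 RPKM in TET KO and 48.0 to 50.8 RPKM in TET WT. Other lists had lower genes in TET KO at EB D4 too, counted here without TET WT replicate 2. Called lower were 9 of 12 visceral endoderm genes (1 higher), with a median of -1.86, and 4 of 10 blood and endothelial genes. Of 15 naive genes 3 were lower and 1 higher, with a median of -0.61. The part of these gene groups in the members' changes was not tested.

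By EB D6 Pou3f1, Sox3, Foxd3 and Tcf15 averaged under 2 RPKM in both TET lines, and 1 member was called. Sox3 had 2.03, 1.82 and 2.12 RPKM in TET KO, against 0.668, 0.911 and 0.564 RPKM in TET WT, a log2 change of 1.04 ± 0.13 (limma adjusted p = 4.1e-05). The groups did not overlap, but the call was lost without TET WT replicate 3 (0.95), with centred libraries (0.93) and under quantile normalization (0.76). Foxd3 had 0.0332, 0.197 and 0.0369 RPKM in TET KO, which were 0, 5 and 1 reads, and 0.277, 0.424 and 0.579 RPKM in TET WT, which were 7, 11 and 15 reads. Its log2 change was -0.65 ± 0.14 and was not called with 0.5 RPKM added, but was called at -1.54 with 0.1 RPKM added, at -2.71 with nothing added and at -2.85 by voom.

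At EB D8 the members lay higher in TET KO. Otx2 had 15.9, 15.6 and 20.1 RPKM in TET KO, against 1.73, 2.45 and 2.99 RPKM in TET WT. Pou3f1 had 4.99, 4.96 and 5.50 RPKM in TET KO, against 0.401, 0.418 and 0.402 RPKM in TET WT. Sox3 had 3.7, 4.84 and 6.35 RPKM in TET KO, against 1.18, 0.890 and 0.788 RPKM in TET WT. None of these groups overlapped, and the log2 changes were 2.63 ± 0.14 for Otx2 (limma adjusted p = 1.1e-08), 2.64 ± 0.09 for Pou3f1 (adjusted p = 3.2e-10) and 1.89 ± 0.17 for Sox3 (adjusted p = 1.3e-06).

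Foxd3 had 1.52, 2.22 and 1.99 RPKM in TET KO at EB D8, against 0.175, 0.395 and 0.490 RPKM in TET WT, a log2 change of 1.5 ± 0.20. Tcf15 had 2.57, 3.01 and 3.85 RPKM in TET KO, against 0.913, 0.547 and 1.41 RPKM in TET WT, a log2 change of 1.35 ± 0.23. Sox11 had 37.8, 40.2 and 34.2 RPKM in TET KO, against 16.1, 15.9 and 15.2 RPKM in TET WT, a log2 change of 1.22 ± 0.06. In each of the 3 genes all TET KO libraries lay above all TET WT libraries. Sall2 had 15.3, 15.2 and 14.8 RPKM in TET KO, against 7.62, 7.57 and 7.91 RPKM in TET WT, without overlap, but at 0.93 ± 0.06 stayed under the size threshold. The median of the 7 members was 1.5, against 0.11 over all genes, and with centred libraries the same 6 were called, at 1.06 (Sox11) to 2.48 (Pou3f1).

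Within TET KO the means were higher at EB D8 than at EB D6. Otx2 in TET KO averaged 5.97 ± 1.2 RPKM at EB D6 and 17.2 ± 2.5 RPKM at EB D8 (n = 3 each), which were 14.1% and 40.6% of the highest mean of that line. For Pou3f1 these shares were 2.59% and 12.7%, for Sox3 8.74% and 21.8%, for Foxd3 0.526% and 11.3%, and for Tcf15 1.22% and 3.33%. The Sox11 mean in TET KO at EB D8 was the highest of all 28 groups. A test between EB D6 and EB D8 was not run.

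Other gene groups moved with the members at EB D8 in TET KO. Of 19 other formative and primed genes, 12 were called higher and 0 lower, and the median log2 change was 1.17. They included Fgf5, a growth factor of the epiblast, at 4.07 ± 0.14, Pim2 at 3.42 ± 0.12, Zic2 at 3.06 ± 0.09 and Utf1 at 2.70 ± 0.13. Of 12 streak genes 6 were higher and 1 lower, with T at 4.08 ± 0.17, and of 8 paraxial mesoderm genes tested 5 were higher, with Meox1, a somite factor, at 2.14 ± 0.22. Of 9 neural genes tested 3 were higher, with the filament gene Nes at 2.26 ± 0.09. Visceral endoderm genes went the other way, 9 of 12 lower, with Rbp4 at -6.03 ± 0.12, and so did 8 of 10 blood and endothelial genes, with the embryonic globin Hba-x at -8.82 ± 0.16. Otx2 is also known from visceral endoderm, Tcf15 from somites and Sox11 from neural cells. Summed per library, the visceral endoderm list held 94.2 to 102 RPKM in TET KO and 952 to 1064 RPKM in TET WT. The paraxial list of 13 held 13.4 to 17.1 RPKM in TET KO (Meox2 and Myf5 had no read) and 3.27 to 5.28 RPKM in TET WT (Meox2, Msgn1 and Pax1 had none). The neural list of 16 held 25.7 to 31.1 RPKM in TET KO and 9.75 to 10.7 RPKM in TET WT, where Hes5 had no read. At ESC D0 the same list held 30.2 to 34.3 RPKM in TET KO and 48.0 to 50.8 RPKM in TET WT. The neural crest list held 131.6 to 140.5 RPKM in TET KO and 67.0 to 71.2 RPKM in TET WT. The naive list held 106 to 128.5 RPKM in TET KO and 71.6 to 73.8 RPKM in TET WT. Shared pluripotency genes summed to 205.5 to 250 RPKM in TET KO and 147 to 162.5 RPKM in TET WT. The cardiac and smooth muscle sums of the lines overlapped. The part of these gene groups in the levels of the members was not tested.

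**Figure D2:**
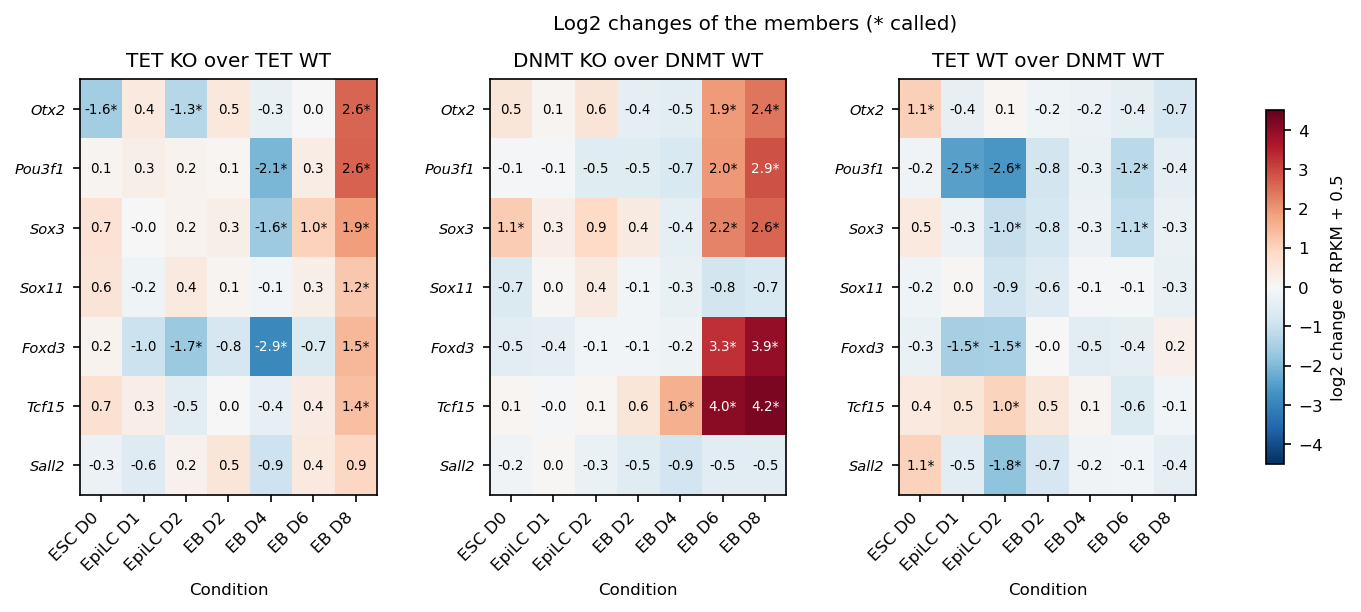
Log2 change of RPKM + 0.5 (colour and number) for the 7 members (rows) at the 7 conditions (columns), in TET KO over TET WT, DNMT KO over DNMT WT and TET WT over DNMT WT, where an asterisk marks a call. The calls in DNMT KO lie at EB D4, EB D6 and EB D8 but for Sox3 at ESC D0, and those in TET KO are negative at EB D4 and positive at EB D8.

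In DNMT KO, 5 of the 7 members were held far above DNMT WT at EB D6 and EB D8, after few calls on the earlier days. Against DNMT WT, 12 of 49 member comparisons were called with 0.5 RPKM added, all higher in DNMT KO. They numbered 1 at ESC D0 (1.03% of all genes were called), 0 at EpiLC D1 (0.95%), 0 at EpiLC D2 (1.59%), 0 at EB D2 (1.14%), 1 at EB D4 (5.82%), then 5 at EB D6 (17.9%) and 5 at EB D8 (18.9%). For the conditions with 0 calls in limma, 1 member had an unadjusted p under 0.05 at EpiLC D1, 5 at EpiLC D2 and 5 at EB D2, and voom called 0 at each.

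**Figure D3:**
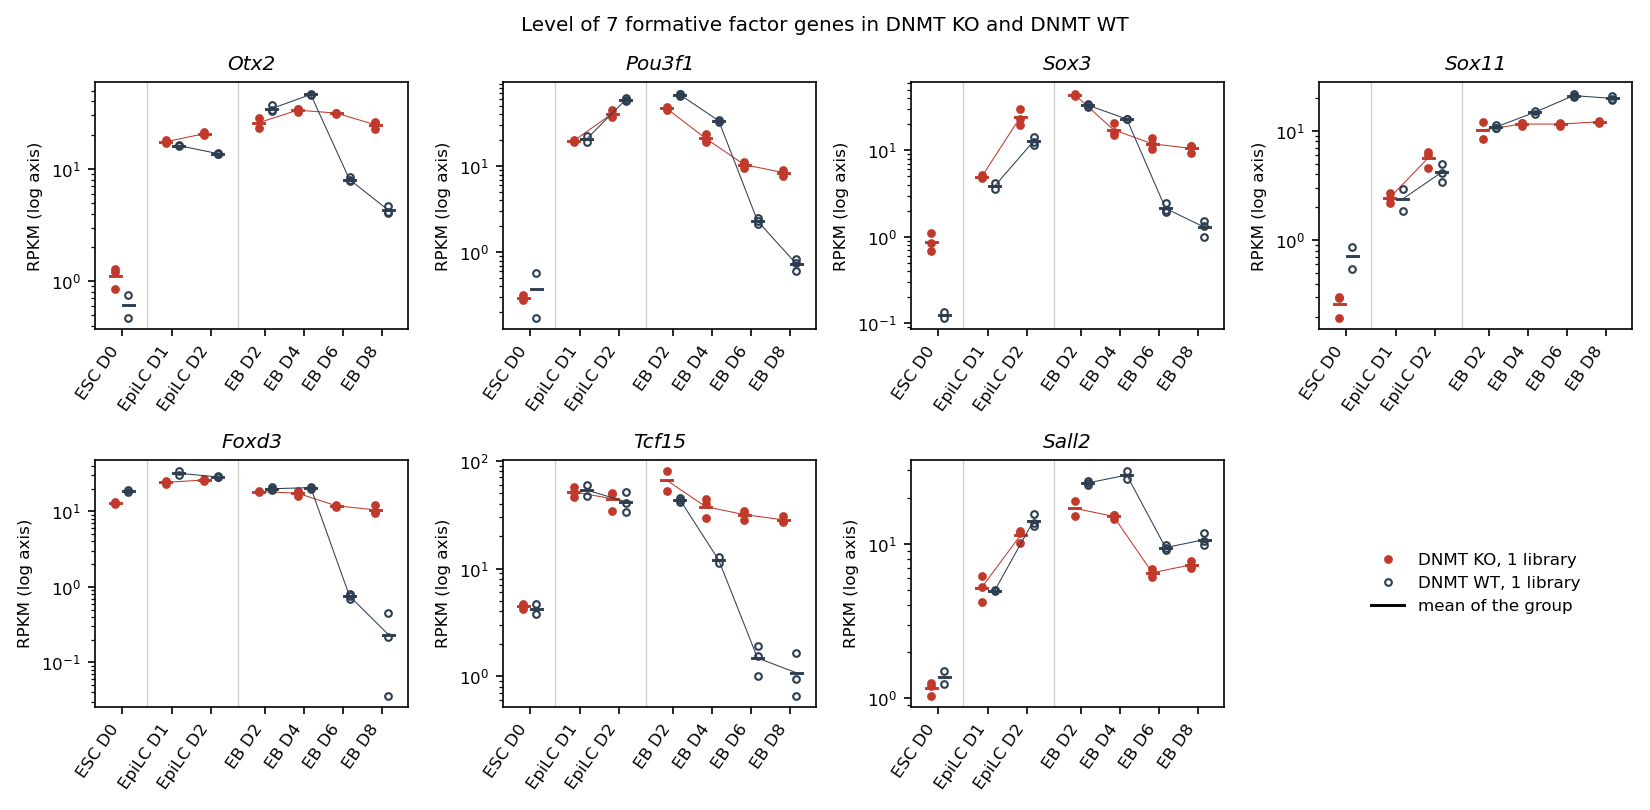
RPKM (log axis) of the 7 members in DNMT KO (filled points, left at each condition) and DNMT WT (open points, right), with 1 point per library, a bar at the mean of the group and lines along the EpiLC days and the EB days. Otx2, Pou3f1, Sox3, Foxd3 and Tcf15 lay far higher in DNMT KO at EB D6 and EB D8, and Sox11 and Sall2 did not.

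In ESCs, Sox3 had 0.845, 1.09 and 0.687 RPKM in DNMT KO, which were 21, 22 and 15 reads, against 0.137 and 0.114 RPKM in DNMT WT, which were 3 reads in each library. The log2 change was 1.13 ± 0.16 (limma adjusted p = 0.0013) with 0.5 RPKM added. Sox3 also had the larger mean in TET KO ESCs, at 0.836, 0.872 and 0.846 RPKM in TET KO against 0.214, 0.529 and 0.356 RPKM in TET WT, a log2 change of 0.66 ± 0.14 that was not called, but was called with 0.1 RPKM added (1.09). Sox11 had 0.300, 0.296 and 0.193 RPKM in DNMT KO ESCs, against 0.871 and 0.550 RPKM in DNMT WT ESCs, without overlap. Its log2 change of -0.66 with 0.5 RPKM added was not called, but it was called lower with 0.1 RPKM added (-1.14), with nothing added (-1.42) and by voom (-1.37). At EpiLC D2 Sox3 had 29.9, 19.7 and 23.1 RPKM in DNMT KO and 14.4, 12.4 and 11.4 RPKM in DNMT WT, without overlap. Its log2 change of 0.89 ± 0.17 there was not called, and was 1.02 without DNMT KO replicate 2.

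At EB D4, Tcf15 was the member called. It had 29.3, 43.8 and 39.6 RPKM in DNMT KO, against 12.7 and 11.2 RPKM in DNMT WT, a log2 change of 1.59 ± 0.25 (limma adjusted p = 0.00036). Every DNMT KO library lay above both DNMT WT libraries. Pou3f1 (-0.67 ± 0.17), Sall2 (-0.86 ± 0.16) and Otx2 (-0.46 ± 0.15) were not called.

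At EB D6 and EB D8, 5 members were called higher in DNMT KO, and Sox11 and Sall2 had changes of the opposite sign. Foxd3 had 11.9, 12.2 and 11.4 RPKM at EB D6 in DNMT KO, against 0.691, 0.765 and 0.803 RPKM in DNMT WT. At EB D8 it had 12, 9.60 and 9.91 RPKM in DNMT KO, against 0.447, 0.217 and 0.0361 RPKM in DNMT WT, which were 11, 7 and 1 reads. The groups were far apart on both days, at log2 changes of 3.30 ± 0.14 at EB D6 (limma adjusted p = 6.1e-10) and 3.94 ± 0.20 at EB D8 (adjusted p = 2.6e-09), and the ratio of the means at EB D8 was 45. Its EB D8 mean in DNMT KO, 10.5 ± 1.3 RPKM, stood beside 13.0 ± 0.47 RPKM in DNMT KO ESCs (n = 3 each).

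Tcf15 had 28.3, 32.6 and 34.0 RPKM at EB D6 in DNMT KO, against 1.55, 1.89 and 0.998 RPKM in DNMT WT. At EB D8 it had 30.5, 26.9 and 27.6 RPKM in DNMT KO, against 1.64, 0.661 and 0.941 RPKM in DNMT WT. The log2 changes were 4.04 ± 0.21 and 4.23 ± 0.23 with 0.5 RPKM added, above that of Foxd3 at EB D8, but with nothing added the EB D8 changes were 4.81 for Tcf15 and 6.10 for Foxd3. Tcf15 in DNMT KO at EB D8 was above its own ESC level of 4.47 ± 0.27 RPKM (n = 3).

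Otx2 had 31.7, 31.6 and 31.1 RPKM at EB D6 in DNMT KO, against 7.74, 8.46 and 7.94 RPKM in DNMT WT. At EB D8 it had 26.0, 22.7 and 25.5 RPKM in DNMT KO, against 4.11, 4.04 and 4.71 RPKM in DNMT WT. The log2 changes were 1.90 ± 0.11 at EB D6 and 2.40 ± 0.14 at EB D8, without overlap on either day. Otx2 in DNMT KO at EB D8 was at 74.1% of the highest mean of that line, and in DNMT WT at 9.30%.

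Pou3f1 had 8.56, 7.61 and 9.14 RPKM at EB D8 in DNMT KO, against 0.834, 0.748 and 0.610 RPKM in DNMT WT, a log2 change of 2.86 ± 0.09 (limma adjusted p = 5.5e-11). Sox3 had 11.2, 9.20 and 11.2 RPKM at EB D8 in DNMT KO, against 1.01, 1.33 and 1.54 RPKM in DNMT WT, a log2 change of 2.63 ± 0.17. Neither gene's groups overlapped. At EB D6 the log2 changes were 1.96 ± 0.16 for Pou3f1 and 2.23 ± 0.13 for Sox3. Both genes had fallen below their own peak in DNMT KO too, to 18.0% of it for Pou3f1 and 23.9% for Sox3 at EB D8.

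Sox11 was lower in every DNMT KO library than in every DNMT WT library at EB D6 and EB D8, but stayed under the size threshold. It had 11.7, 11.1 and 11.7 RPKM at EB D6 in DNMT KO, against 21.8, 20.4 and 20.7 RPKM in DNMT WT, a log2 change of -0.84 ± 0.05 (limma adjusted p = 2.1e-08). At EB D8 it had 12.4, 12.1 and 11.8 RPKM in DNMT KO, against 19.3, 19.1 and 20.8 RPKM in DNMT WT, a log2 change of -0.69 ± 0.06. In DNMT KO the mean stayed between 10.2 and 12.1 RPKM over the 4 EB days. Sall2 was at -0.51 ± 0.06 on both days, with 6.96, 7.80 and 7.23 RPKM at EB D8 in DNMT KO and 11.7, 10.4 and 9.86 RPKM in DNMT WT.

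The difference of response from ESC D0 between DNMT KO and DNMT WT was called for 0 members at EpiLC D1 (0.504% of all genes), 1 at EpiLC D2 (1.59%), 0 at EB D2 (2.4%) and 2 at EB D4 (7.7%). Sox11 at EpiLC D2 (1.06 ± 0.23) lost its call under quantile normalization (0.94) and without DNMT KO ESC D0 replicate 3 (0.99), DNMT KO EpiLC D2 replicate 2 (0.97), DNMT WT ESC D0 replicate 1 (0.87) or DNMT WT EpiLC D2 replicate 1 (0.94). At EB D4, Sox3 had a difference of -1.54 ± 0.26 and Tcf15 of 1.52 ± 0.30. Sox3 started higher in DNMT KO, at a mean of 0.875 RPKM at ESC D0 against 0.126 RPKM in DNMT WT, where each library had 3 reads. Its level at EB D4, 17.2 RPKM in DNMT KO and 23.0 RPKM in DNMT WT, was not itself called. Otx2 was just short of a call at EB D2 (-0.96 ± 0.24) and EB D4 (-0.998 ± 0.25), and was called without DNMT KO ESC D0 replicate 1 (-1.08 and -1.12) or DNMT WT ESC D0 replicate 1 (-1.15 and -1.19). It was also called at EB D2 without DNMT KO EB D2 replicate 3 (-1.10), and at EB D4 without DNMT KO EB D4 replicate 1 (-1.01) or 3 (-1.02) or DNMT WT EB D4 replicate 2 (-1.02). The count moved with the amount added before the log, with 10 member comparisons of 28 called with 0.1 RPKM added and 3 with 0.5. The 7 gained were 3 of Sox3, 2 of Sox11 and 2 of Otx2. The shares of all genes above are those with 0.5 RPKM added. That with 0.1 RPKM added is not given, so the gain is not shown to be particular to the members. For the conditions with 0 calls in limma, 2 members had an unadjusted p under 0.05 at EpiLC D1 and 6 at EB D2, and voom called 2 at each.

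In DNMT KO, genes of the naive network were higher from EB D4 on. On that day Tcf15 alone of the members was called. The means of the 6 others were lower in DNMT KO (n = 3) than in DNMT WT (n = 2). Their ratios ran from 0.540 (Sall2) to 0.843 (Foxd3), and none of them was called. The median log2 change of the 7 members was -0.42, against 0.00 over all genes. Of 15 naive genes, 12 were called higher on EB D4, 13 on EB D6 (1 lower) and 12 on EB D8, with medians of 1.38, 3.41 and 3.71 (log2) against 0.00, 0.04 and 0.01 over all genes. At EB D8 Zfp42, a naive marker, was at 5.52 ± 0.21 and Esrrb, a nuclear receptor of the naive network, at 5.31 ± 0.11. Of 7 shared pluripotency genes 5 were higher at EB D8, with Dppa2 at 5.51 ± 0.11. Of 19 other formative and primed genes 12 were higher and 3 lower at EB D8, with Dnmt3l, a cofactor of the de novo methyltransferases, at 5.46 ± 0.12, Utf1 at 4.65 ± 0.13 and Nodal at 2.95 ± 0.13. Lower were 8 of 12 visceral endoderm genes (2 higher), 6 of 10 blood and endothelial genes and 6 of 7 cardiac and smooth muscle genes, with Actc1, a cardiac actin, at -4.26 ± 0.22. Summed per library at EB D8, the naive list held 682 to 706 RPKM in DNMT KO and 52.2 to 57.0 RPKM in DNMT WT. The neural list held 39.6 to 43.6 RPKM in DNMT KO (Six3 and Fezf2 had no read) and 14.3 to 16.8 RPKM in DNMT WT (Zic1 and Fezf2 had none). At ESC D0 the neural list was higher, at 127 to 136 RPKM in DNMT KO and 117 to 130 RPKM in DNMT WT. Its sum is thus not a measure of neural cells alone. The paraxial list held 3.56 to 4.28 RPKM in DNMT KO and 6.43 to 7.76 RPKM in DNMT WT at EB D8. Which cells of the EBs held the members' RNA was not tested.

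**Figure D4:**
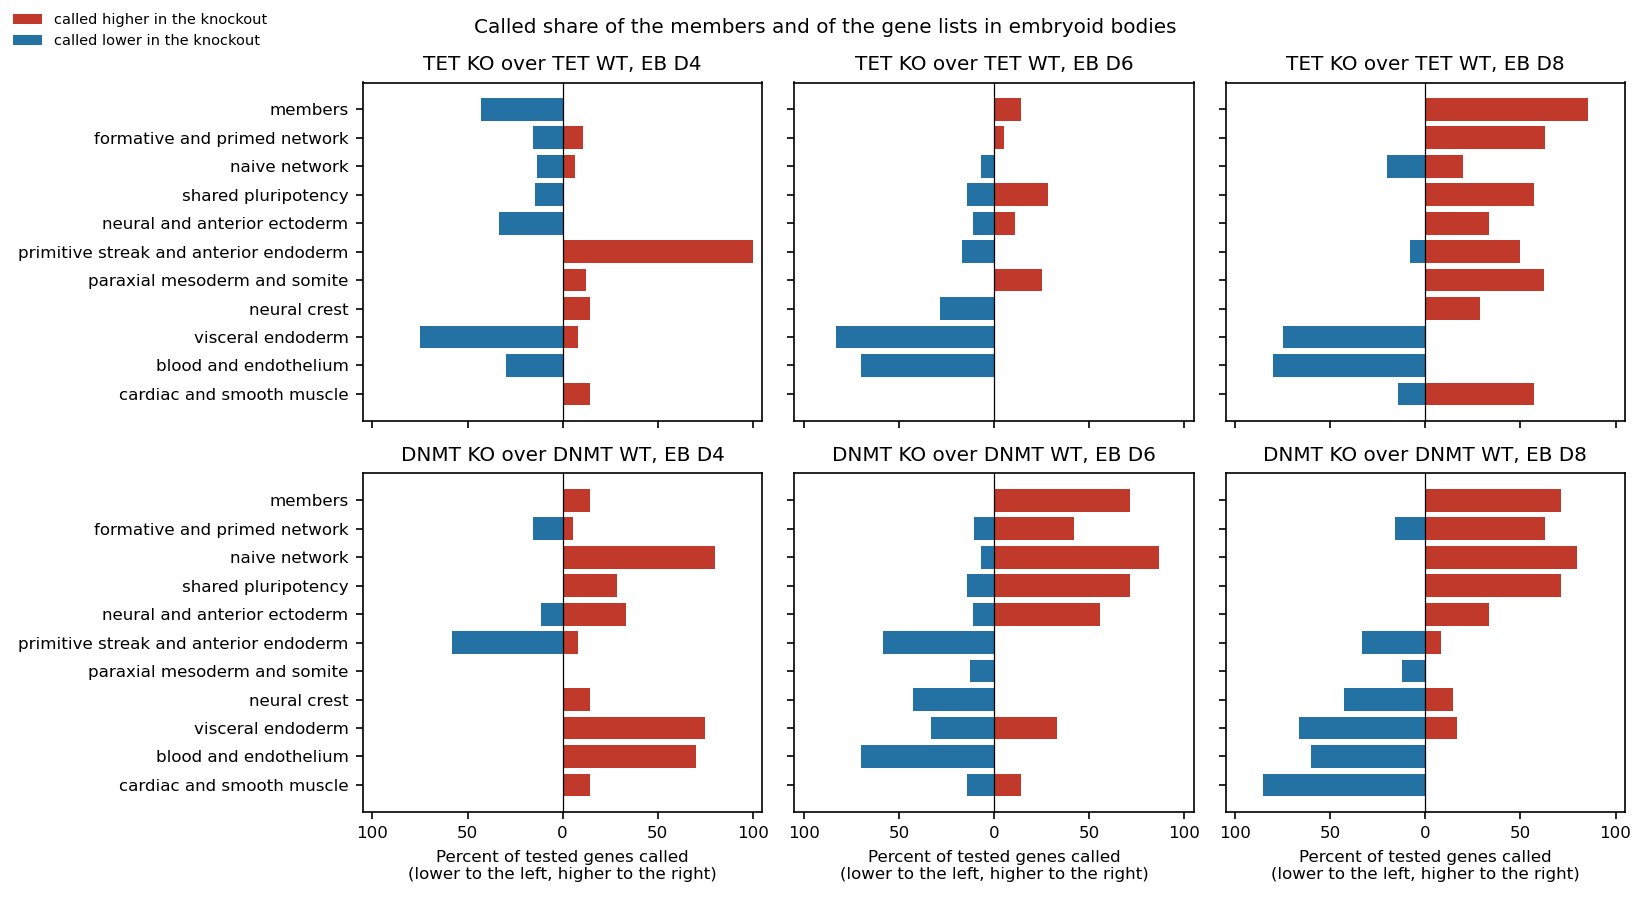
Percent of the tested genes called higher (right of 0) or lower (left of 0) in TET KO over TET WT (top) and DNMT KO over DNMT WT (bottom) at EB D4, EB D6 and EB D8, for the 7 members and for 10 gene lists without the members. At EB D4 in TET KO 3 members were called lower and all 12 streak genes higher, while at EB D8 in DNMT KO 5 members and 12 of 15 naive genes were called higher.

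The knockout effects were then set against each other, as the TET KO effect minus the DNMT KO effect, a test chosen after the levels had been seen. At EB D4, 16.1% of all genes differed, and so did Foxd3 (-2.66 ± 0.23), Tcf15 (-1.95 ± 0.33), Pou3f1 (-1.38 ± 0.23) and Sox3 (-1.23 ± 0.26). Without TET WT EB D4 replicate 2 the same 4 differed, at -2.85, -2.23, -1.58 and -1.47 in that order. At EB D6, where 20.5% of all genes differed, 6 members did, Foxd3 at -3.95 ± 0.19, Tcf15 at -3.69 ± 0.30, Otx2 at -1.90 ± 0.15, Pou3f1 at -1.62 ± 0.22, Sox3 at -1.19 ± 0.18 and Sox11 at 1.10 ± 0.07. At EB D8, where 20.7% of all genes differed, the differences of Otx2 (0.23 ± 0.20), Pou3f1 (-0.22 ± 0.13) and Sox3 (-0.74 ± 0.24) were not called, though that of Sox3 was called under quantile normalization (-1.15). Foxd3 (-2.43 ± 0.29) and Tcf15 (-2.88 ± 0.33) had the more positive change in DNMT KO, and Sox11 (1.91 ± 0.08) and Sall2 (1.44 ± 0.09) had it in TET KO. In all, 14 of 21 member comparisons differed between the knockout effects.

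Each member's pattern over the 28 group means was compared with the genes that reached 5 RPKM in a group (9881 in number) by Pearson correlation of log2(RPKM + 0.5). The groups share lines, so r is a description. The most alike of Otx2 were Pmaip1 (0.914), Tor3a (0.908) and Slc5a5 (0.90), and of Pou3f1 they were Sox3 (0.944), Wt1 (0.935) and Foxi3 (0.934). Those of Sox3 were Tmem54 (0.960), Pou3f1 (0.944) and Usp44 (0.928), and those of Sox11 were Sort1 (0.964), Bcl2l11 (0.962) and Ptpn13 (0.959). Foxd3 ran most like L1td1 (0.942), Rif1 (0.937) and Zbtb8a (0.925), Tcf15 like Mkrn1 (0.960), Pla2g10 (0.957) and Utf1 (0.953), and Sall2 like Pcdh1 (0.918), Spred3 (0.916) and Zcchc3 (0.909). Within the members, Otx2, Pou3f1 and Sox3 correlated with each other at 0.85 to 0.944. Foxd3 correlated best with Tcf15 (0.719) and at -0.544 with Sox11, and Sox11 best with Sall2 (0.789). The members did not share 1 pattern.

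Deposited genes that overlap a member or lie within 5 kb of it were looked up, since whether reads were counted by strand is not given. Gm49154, which overlaps Otx2 on the same strand, stayed at or below 0.263 RPKM, and Otx2os1, on the opposite strand, at or below 0.274 RPKM. Gm2164, opposite Pou3f1, stayed at or below 2.37 RPKM. Gm12688, a predicted gene that lies upstream of Foxd3 on the opposite strand at chr4:99653607-99654983, was called in the same direction as Foxd3 in 3 of the knockout comparisons. It averaged 3.90 ± 0.75 RPKM in DNMT KO at EB D8, against 0.179 ± 0.11 RPKM in DNMT WT (n = 3 each), a log2 change of 2.70 ± 0.15. At EB D6 in DNMT KO its log2 change was 2.52 ± 0.25, and at EB D4 in TET KO it was -1.56 ± 0.37. The value at EB D4 includes the TET WT library that stood apart, and none without it is given. Foxd3 was also called in TET KO at EpiLC D2 and EB D8, which are not among the 3.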

How the data were processed

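Per the labels' protocols, the libraries were poly(A)-selected, keep strand, and came from DNase-treated RNA isolated on columns. The submitters' processing notes name Trim Galore 0.6.1, cutadapt 1.18, HISAT2 2.1.0 and the build GRCm38, and no counting tool or annotation release. The authors deposited log2 RPKM values, 1 per gene and library. Taking merged exon lengths from GENCODE M21 and counting a gene without a read as 0.9 reads, 96.9% of the values up to 20 reads were whole within 0.1, and read numbers and depths were taken from this.

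After leaving out 39 repeated identifiers of 35269 entries, the 15267 genes that reached 1 RPKM in 2 or more libraries were tested on log2(RPKM + 0.5) in limma 3.58.1 (R 4.3.3, trend and robust), with Benjamini-Hochberg adjustment over them. Comparisons between lines used the 4 genotypes at 1 condition, and those between conditions or of responses the 4 genotypes at both. Groups came from the labels. The column matching the group DNMT WT at EpiLC D1 but no single sample served as a replicate with no number. The fit was tested on simulated data. Alternatives were 0.1 RPKM or nothing added before the log, no filter, centring, quantile normalization, 1 fit over all 79 libraries, only the groups compared, other variance settings, a replicate block and each library left out. Chosen after seeing the data were voom in limma on the recovered reads and the difference between the knockout effects. Named genes were the members, the 3 genes most like each (among 9881 with at least 5 RPKM in a group), up to 4 called genes of a list, and targeted and neighbouring genes. The members and lists were chosen with earlier results of these data known.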

Additional observations from a re-analysis of the deposited data

Results flagged for a closer look

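The results here were picked out because a member's change differed between 2 lines by a test of the difference itself, in limma (adjusted p below 0.05, log2 size 1 or more). They are 27 in number, and values are log2.

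For the change from ESC D0 in TET KO minus that in TET WT, Otx2 differed by 2.03 at EpiLC D1, 2.05 at EB D2 and 1.25 at EB D4, and Foxd3 by -1.14 at EpiLC D1, -1.82 at EpiLC D2 and -3.07 at EB D4. Tcf15 differed by -1.15 at EpiLC D2 and -1.04 at EB D4, Pou3f1 by -2.18 at EB D4 and Sox3 by -2.31 at EB D4. Tcf15 started from the higher ESC D0 mean in TET KO, and its levels at EpiLC D2 and EB D4 were not themselves called. For the same change in DNMT KO minus that in DNMT WT, Sox11 differed by 1.06 at EpiLC D2, Sox3 by -1.54 at EB D4 and Tcf15 by 1.52 at EB D4. Sox3 started from the higher ESC D0 level in DNMT KO, and its level at EB D4 was not itself called. The differences of 1 pair of lines share its ESC D0 libraries, so they are not independent of each other.

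For the TET KO effect minus the DNMT KO effect, a test chosen after seeing the data, Foxd3 differed by -2.66 (EB D4), -3.95 (EB D6) and -2.43 (EB D8), and Tcf15 by -1.95, -3.69 and -2.88 on the same days. Pou3f1 differed by -1.38 at EB D4 and -1.62 at EB D6, Sox3 by -1.23 and -1.19 on those days, and Otx2 by -1.90 at EB D6. Sox11 differed by 1.10 at EB D6 and 1.91 at EB D8, and Sall2 by 1.44 at EB D8.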

How the results depend on the processing

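The 139 called member results were recomputed under 2321 alternatives, of which 2286 kept the call, 35 lost it and 0 turned its direction. The calls of 125 results were kept throughout, and the 14 others are named with their values in the report, but for Sox3 in the difference of knockout effects at EB D6, which was -0.97 with nothing added before the log. Quantile normalization lost 8 calls, centring 5. More calls were gained than lost with 0.1 RPKM added (17 gained), nothing added (24) and voom (18). These gains were of Otx2, Pou3f1, Sox3, Sox11 and Foxd3. The count of called differences of response was 16 for TET KO with nothing added, against 10 with 0.5 RPKM. For DNMT KO it was 10 with 0.1 RPKM added, 11 with nothing added and 9 by voom, against 3. The shares of all genes called at these other settings are not given, so the gains are not shown to be particular to the members. The cause was not tested.

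With 1 library left out, the count of calls ran from 12 to 14 for TET KO over TET WT, 12 to 13 for DNMT KO over DNMT WT, 9 to 11 between the parental lines, 14 to 14 for the difference of knockout effects, 30 to 31 for TET WT over ESC D0, 36 to 37 for DNMT WT over ESC D0, 9 to 10 and 2 to 5 for the differences of response in TET KO and DNMT KO, and 8 to 8 for EpiLC D2 over EB D2. Same-numbered libraries of a knockout and its parental line deviated together at a correlation over 0.1 in 4 of 36 pairs (-0.241 to 0.289), so the numbers were not taken to pair samples. With the replicate number as a block, the calls between the parental lines were 10 instead of 11, as Otx2 at ESC D0 came to 0.98, and no other count moved.

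Each genotype was 1 line with 2 or 3 libraries a group, and log2 changes from few reads, as of Sox3 in ESCs, moved with the amount added.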
